A study of Mus musculus with 20 samples.

Results

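Transcripts of 10 genes tied to neutrophils and to the first hours after tissue injury were followed in injected skeletal muscle, namely S100a8, S100a9, Csf3r, Cxcr2, Retnlg, Mmp9, Il1b, Il1r2, Clec4d and Trem1. They were chosen by gene symbol, and each of the 10 matched 1 of the 55416 genes counted. The series consists of bulk RNA-seq of quadriceps from 20 wild-type (WT) male C57BL/6J mice aged 26 to 28 months, 1 injected muscle per mouse. In the control group, 10 mice received a single intramuscular injection of 50 µL of saline, and in the secretome group 10 mice received 50 µL of a cell-free product made from the pooled medium of partially differentiated human embryonic stem cells. The authors describe the product as injected diluted in saline. All mice were fasted for 4 h, and the muscle was taken 3 h after the injection. Every muscle in both groups had thus been pierced by a needle and received fluid, and muscle that was not injected is not analysed here.

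Neutrophils are short-lived white blood cells that leave the blood within hours of tissue damage, guided by chemokines that bind the receptor CXCR2. They are produced and kept alive under the growth factor G-CSF, whose receptor is encoded by Csf3r, and they carry large amounts of calprotectin, the pair of calcium-binding proteins S100A8 and S100A9. In damaged muscle they arrive before monocytes and macrophages, and interleukin-1 beta is among the signals released early. Several of the 10 genes are not restricted to neutrophils, since monocytes and macrophages can also make Il1b, Il1r2, Clec4d, Trem1 and calprotectin, and Mmp9 is made by several cell types. In bulk tissue, fewer cells of a type and less RNA per cell cannot be told apart.

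The libraries held 13286983 to 22987237 counted reads (median 18011570). The labelled tissue was borne out by myofibre transcripts such as Myh4 and Ttn, and the 10 myofibre markers together had between 155797 and 377052 CPM (read counts scaled to library size) in a muscle. The share of Ttn, from 7.02% to 21.1% of a library, followed the library numbers in the labels. Libraries 1 to 5 were all controls, libraries 16 to 20 were all secretome-treated, and only libraries 6 to 15 held 5 muscles of each group, so that group and library number cannot be told apart outside that range. Ly6g, the surface marker most used for mouse neutrophils, had 0 counts in 15 of 20 muscles and at most 2 counts in any. In the genes studied here, control replicate 3, secretome replicate 7 and secretome replicate 8 stood apart from the other 17 muscles. These 3 were picked out after the values had been seen, and results are given with and without them.

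The promoters of the calprotectin genes and of both receptors are shown. These 4 transcripts ran together across muscles, as did those of other genes of the set. Each line gives the 250 bases before the start of the gene, 5′ to 3′ on the strand of the gene, from RefSeq on GRCm38.p6, whereas the reads had been counted on GRCm39. S100a8 lies on the plus strand at chr3:90668821-90669070, S100a9 on the minus strand at chr3:90695722-90695971, Csf3r on the plus strand at chr4:126024409-126024658 and Cxcr2 on the plus strand at chr1:74153744-74153993. Capitals mark matches, on either strand, to the core of the motif of PU.1, a myeloid transcription factor (GAGGAA), and to a C/EBP motif (TTNCNNAA).
S100a8: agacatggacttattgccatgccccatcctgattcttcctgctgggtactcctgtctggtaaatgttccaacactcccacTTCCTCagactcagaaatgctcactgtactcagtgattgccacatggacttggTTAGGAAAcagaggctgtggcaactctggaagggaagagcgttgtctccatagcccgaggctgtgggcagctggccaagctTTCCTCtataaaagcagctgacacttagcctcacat
S100a9: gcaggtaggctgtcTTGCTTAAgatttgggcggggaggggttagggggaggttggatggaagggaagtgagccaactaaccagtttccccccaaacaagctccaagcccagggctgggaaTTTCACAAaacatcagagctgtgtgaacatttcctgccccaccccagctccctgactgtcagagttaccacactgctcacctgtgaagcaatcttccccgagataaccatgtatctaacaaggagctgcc
Csf3r: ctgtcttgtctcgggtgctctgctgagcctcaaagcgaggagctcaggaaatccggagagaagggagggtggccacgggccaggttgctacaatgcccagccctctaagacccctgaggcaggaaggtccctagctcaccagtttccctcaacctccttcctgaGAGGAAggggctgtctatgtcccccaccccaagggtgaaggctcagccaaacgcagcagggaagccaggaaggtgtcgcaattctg
Cxcr2: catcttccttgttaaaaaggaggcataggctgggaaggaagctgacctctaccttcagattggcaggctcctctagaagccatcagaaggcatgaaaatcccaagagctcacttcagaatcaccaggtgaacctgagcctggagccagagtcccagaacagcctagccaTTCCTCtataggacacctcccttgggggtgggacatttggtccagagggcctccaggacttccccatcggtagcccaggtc

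RefSeq entries were matched for 9 of the 10 genes, Mmp9 being the one without an entry. The PU.1 core was in 5 of these 9 promoters, among them S100a8, Csf3r and Cxcr2, and in 23.3% of all 32841 promoters of the same length. The C/EBP letters, which can overlap the PU.1 core but did not in these 9, were in 6 of the 9, among them S100a8 and S100a9, and in 36.9% of all promoters. An AP-1 motif (TGANTCA) was in 0 of the 9 and in 6.75% of all promoters, and the NF-kB motif was in 0 of the 9 and in 3.9% of all. A match is a run of letters and not a measured binding site.

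Calprotectin transcripts were spread over a wide range in both groups, and the group ranges overlapped. S100a8 had 0.227, 0.968 and 6.02 CPM in the lowest, median and highest control muscle, against 0, 0.688 and 18.1 CPM in secretome-treated muscle. The highest muscles were secretome replicate 8 with 18.1 CPM (382 counts), secretome replicate 7 with 9.63 CPM (175 counts) and control replicate 3 with 6.02 CPM (107 counts), while the fourth, secretome replicate 2, had 4.19 CPM. The group means were 1.43 ± 1.73 CPM in control and 3.57 ± 5.90 CPM in secretome muscle (SD, n = 10 each), although the control median lay above the secretome median. S100a9, its partner, ran from 0.0567 over a median of 1.00 to 7.82 CPM in controls and from 0 over 0.986 to 22.8 CPM after secretome. Again secretome replicates 8 and 7 were highest, with 22.8 and 16.7 CPM, followed by control replicate 3. Secretome replicate 10 had 0 counts of both genes, which allows up to 0.176 CPM of each.

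Fold changes are log2 values, secretome against control, from the quasi-likelihood test of edgeR, and adjusted p follows Benjamini and Hochberg over all genes tested. Among the 14471 genes that passed the filter on low counts, 1 gene (0.00691%) passed a 5% false discovery rate and 15.7% had an unadjusted p under 0.05. Of the 10 neutrophil and injury genes, 7 passed the filter, and of these 7 none passed the false discovery rate (0 genes) or had an unadjusted p under 0.05 (0 genes). A log2 fold change above 0 was found in 4 of the 7, and in 44.1% of all genes tested. By DESeq2, 0 of the 10 passed, against 1.1% of 18521 genes tested, and 0 had an unadjusted p under 0.05, against 15.2%. In all 10 genes the ranges of the groups overlapped, as in all but 0.0484% of genes tested. S100a8 had a log2 fold change of 1.33 ± 0.86 (SE; 95% interval -0.48 to 3.13; adjusted p = 0.454). For S100a9 it was 1.37 ± 0.87 (95% interval -0.45 to 3.19; adjusted p = 0.446). Both intervals hold 0 and also hold changes of over 3 log2 units, so that a large difference in either gene was not excluded by these data.

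**Figure D1:**
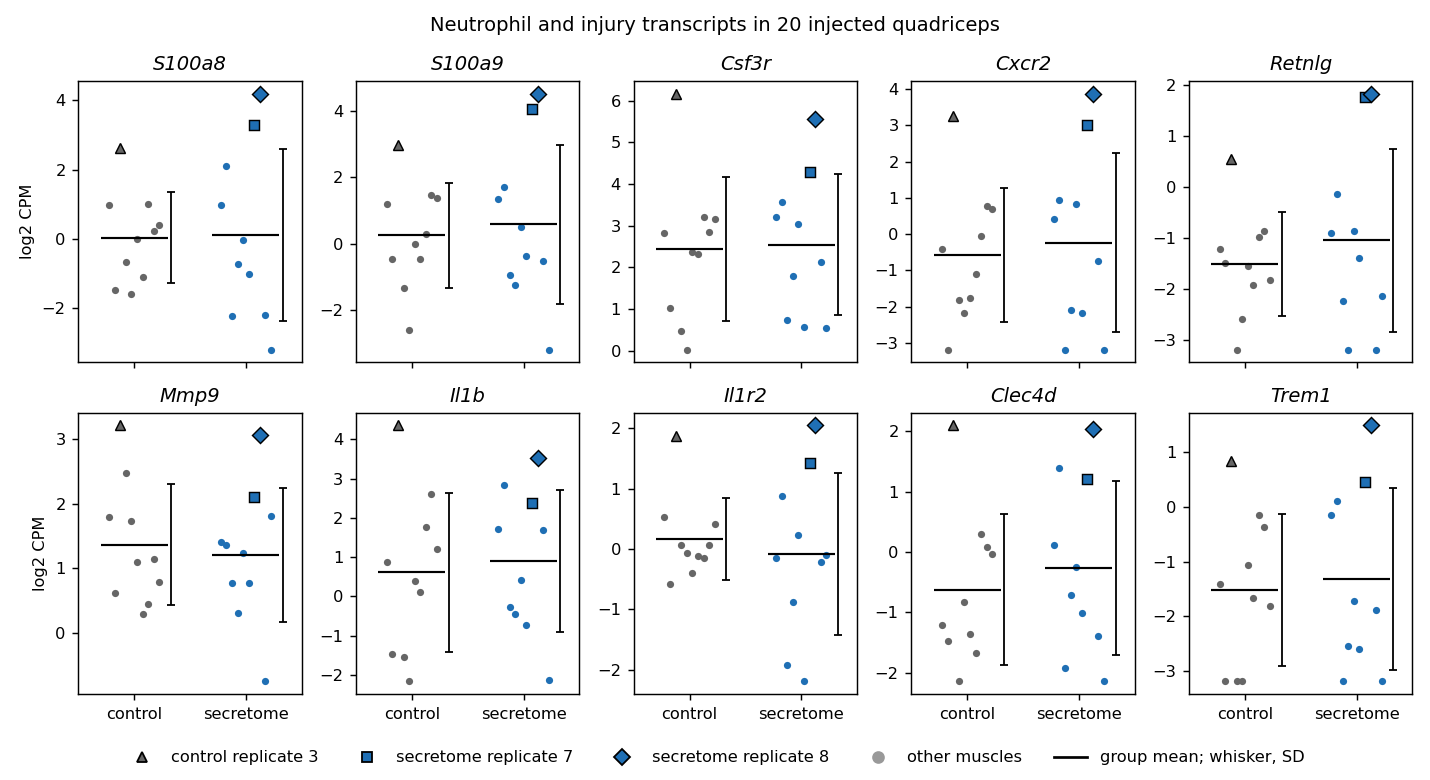
Level of each of the 10 transcripts in 20 injected quadriceps, as log2 CPM with a prior count of 2 (vertical axis, own range in each panel). Each point is 1 muscle, the horizontal line is the group mean and the whisker beside it the SD (n = 10 per group). The triangle (control replicate 3), square (secretome replicate 7) and diamond (secretome replicate 8) are the 3 highest muscles in 7 of the 10 panels, the exceptions being Mmp9, Il1b and Clec4d.

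The receptors had the same muscles on top, but in another order. Csf3r, the G-CSF receptor, was the gene of the set with the most counts, and ran from 0.906 over 6.00 to 71.6 CPM in controls and from 1.35 over 6.17 to 47.3 CPM after secretome. Control replicate 3 alone held 1272 counts, or 11.9 times the control median, ahead of secretome replicate 8 with 1000 counts and secretome replicate 7 with 355 counts. The groups overlapped throughout, and their means were 11.8 ± 21.2 and 10.8 ± 14.1 CPM (SD, n = 10 each). The log2 fold change was -0.12 ± 0.77 (SE; 95% interval -1.73 to 1.49; adjusted p = 0.952, edgeR).

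Cxcr2, the receptor for neutrophil-attracting CXC chemokines, had 0, 0.499 and 9.40 CPM in the lowest, median and highest control muscle, and 0, 0.850 and 14.5 CPM after secretome. Secretome replicate 8 was highest, and control replicate 3 with 9.40 CPM stood above secretome replicate 7 with 7.92 CPM. No read of Cxcr2 was counted in 3 muscles, control replicate 2 and secretome replicates 3 and 10, which allows up to 0.186, 0.154 and 0.176 CPM. Its log2 fold change was 0.92 ± 0.98 (SE; 95% interval -1.12 to 2.96; adjusted p = 0.668, edgeR), the widest interval of the 7 tested genes. Of its summed CPM over the 20 muscles, 74.6% lay in the 3 muscles named above, the largest such share among the 10 genes.

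Secreted products of neutrophils differed in their spread. Retnlg, a resistin-like protein made by mouse neutrophils, had at most 73 counts and did not pass the filter, and ran from 0 over 0.240 to 1.35 CPM in controls and from 0 over 0.350 to 3.45 CPM after secretome. Secretome replicates 8 and 7 were almost level in Retnlg with 73 and 60 counts, well above control replicate 3 with 24 counts. Mmp9, the gelatinase of neutrophil granules, varied far less, from 1.12 over 2.08 to 9.17 CPM in controls and from 0.486 over 2.36 to 8.23 CPM after secretome. In Mmp9 the third highest muscle was control replicate 4 with 5.48 CPM, a muscle in which S100a8 had only 0.525 CPM. The log2 fold change of Mmp9 was -0.14 ± 0.43 (SE; 95% interval -1.03 to 0.75; adjusted p = 0.895, edgeR), and that of Retnlg, from the fit without a filter, was 1.42 ± 0.82 (95% interval -0.31 to 3.14; adjusted p = 0.426).

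Among the interleukin-1 genes, Il1b had another highest muscle than the calprotectin genes. Il1b, which encodes interleukin-1 beta, ran from 0.113 over 1.46 to 20.4 CPM in controls and from 0.117 over 2.17 to 11.5 CPM after secretome. Control replicate 3 with 362 counts was highest, secretome replicate 8 had 243 counts, and secretome replicate 2 with 132 counts came before secretome replicate 7 with 92. The log2 fold change of Il1b was -0.12 ± 0.80 (SE; 95% interval -1.79 to 1.54; adjusted p = 0.952, edgeR). Il1r2, a decoy receptor that binds interleukin-1 without signalling, was flatter, with 0.559, 0.891 and 3.55 CPM in the lowest, median and highest control and 0.110, 0.805 and 4.02 CPM after secretome. Its log2 fold change was 0.11 ± 0.47 (95% interval -0.87 to 1.09; adjusted p = 0.927, edgeR). The reads of Il1r2 are uncertain, since it overlaps Gm16894 on the opposite strand (425 counts in all libraries) and Gm37347 on the same strand (182 counts), and the strand setting of the counting is not given in the sources used here.

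The activating receptors of myeloid cells were scarce in most muscles. Clec4d, a C-type lectin receptor, ran from 0.117 over 0.387 to 4.16 CPM in controls and from 0.117 over 0.615 to 3.97 CPM after secretome, with control replicate 3 and secretome replicate 8 nearly level at the top (74 and 84 counts). Trem1, which amplifies inflammatory signalling, had 0 counts in 3 control and 2 secretome muscles and at most 57 counts, in secretome replicate 8. Neither gene passed the filter. Without a filter, their log2 fold changes were 0.47 ± 0.69 (SE) for Clec4d and 0.60 ± 0.86 for Trem1, with adjusted p of 0.776 and 0.772 in edgeR.

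Per kilobase of exon, the order of the median control levels was S100a9 with 1.92 CPM per kilobase, Csf3r with 1.66, S100a8 with 1.40, Il1b with 0.764 and Mmp9 with 0.587. Il1r2 at 0.467, Retnlg at 0.405, Clec4d at 0.242, Cxcr2 at 0.164 and Trem1 at 0.0786 CPM per kilobase followed. After secretome the order began in the same way, with medians of 1.89 for S100a9 and 1.71 for Csf3r, but Il1b at 1.14 CPM per kilobase stood before S100a8 at 0.991. Neighbours in these orders differed by less than the spread between muscles, since each gene ranged over more than 6-fold within its group. Per length, S100a9 stood beside Csf3r although far fewer reads fell on it.

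The spread between mice was wider in these genes than in the median gene tested. The SD of log2 CPM over the 20 muscles had a median of 1.87 in the 7 tested genes, against 0.34 over all 14471 genes tested. Only 0.0622% of genes varied at least as much as Cxcr2 and 0.0967% at least as much as S100a9, whereas 1.54% did so for Il1r2 and 2.19% for Mmp9. The standard error of the log2 fold change had a median of 0.80 in the 7 genes and of 0.15 over all genes. All genes were not matched to the set for abundance. A wide spread was not particular to the set, since the genes most like it, named below, had standard errors from 0.54 (Lilrb4a) to 0.87 (Cd300lf). Of the 10 genes, only Csf3r and Il1b had a larger SD of log2 CPM in control than in secretome muscle. The SD was 1.73 in control against 1.70 in secretome muscle for Csf3r and 2.02 against 1.81 for Il1b (n = 10 each). In all other genes it was larger in secretome muscle, though by little in Mmp9 (0.94 in control against 1.04). In S100a8 it was 1.31 in control against 2.47 in secretome muscle, and in S100a9 1.59 against 2.39. Cxcr2 had 1.85 against 2.48 and Retnlg 1.01 against 1.79, and Il1r2, Clec4d and Trem1 differed in the same direction. These differences between SDs were not tested.

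In 7 of the 10 genes the 3 highest muscles were control replicate 3 and secretome replicates 7 and 8. Among the 7 genes that passed the filter this held for 5, and among all 14471 genes tested for 84 (0.58%), where the 3 muscles had been chosen from the values of these same genes. These muscles held 67.4% of the summed CPM of S100a8, 70.5% of S100a9, 61.5% of Csf3r, 65.9% of Retnlg, 54.6% of Trem1, 53.2% of Il1b and 50.3% of Clec4d. The shares of Il1r2 and Mmp9 were lower, at 42.1% and 36.8%. Summed over all 10 genes, secretome replicate 8 had 136 CPM, control replicate 3 135 CPM and secretome replicate 7 72.4 CPM, while the other 17 muscles had between 4.79 and 36.5 CPM. The highest of these 17 was secretome replicate 2, the fourth muscle in 7 of the 10 genes and the third in Il1b and Clec4d. The lowest was secretome replicate 3, and secretome replicate 10 had the lowest mean of gene-centred log2 values.

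The sign of the fold changes depended on which of these muscles were used. Control replicate 3 was the highest control in all 10 genes, and the 3 muscles were picked from these same values. Leaving them out was thus bound to move the fold changes in the directions given here. The genes also ran together across muscles, so that they are not separate observations. The shares over all genes, for which these muscles were not picked, are no fair yardstick here. Without control replicate 3, all 7 tested genes had a log2 fold change above 0, with a median of 1.08, as had 45.2% of all genes, and 3 had an unadjusted p under 0.05, against 4.86% of all genes that were higher at that threshold. In the fit without a filter these were 4 of 10, Retnlg being added, against 3.88% of all genes. The 3 were S100a8 with 1.96 ± 0.88 (SE), S100a9 with 2.00 ± 0.89 and Cxcr2 with 2.21 ± 0.96, with adjusted p between 0.416 and 0.423 in edgeR, and 0 of the 7 passed the false discovery rate, against 0.0138% of all genes. By DESeq2 without this muscle, 5 of the 10 had an unadjusted p under 0.05, against 4.85% of all genes that were higher, and 0 passed the false discovery rate (0.311% of all genes), the lowest adjusted p being 0.261. Leaving out secretome replicate 8 alone brought the log2 fold change of S100a8 to 0.46, that of S100a9 to 0.60 and that of Cxcr2 to 0.004, and leaving out secretome replicate 7 alone gave 1.03, 0.92 and 0.60. Without secretome replicates 7 and 8, all 7 had a log2 fold change below 0, with a median of -0.75 and adjusted p between 0.447 and 0.778 in edgeR, while 43.9% of all genes were above 0. Csf3r then had -1.20 ± 0.76, Cxcr2 -1.11 ± 0.93 and S100a9 -0.75 ± 0.70.

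With all 3 muscles left out, 6 genes passed the filter, of which 3 had a log2 fold change above 0 and 3 below, against 44.5% of all genes above 0. Csf3r had 0.00047 ± 0.51 (SE), S100a8 0.13 ± 0.68, S100a9 -0.13 ± 0.64, Il1b 0.23 ± 0.71, Il1r2 -0.29 ± 0.37 and Mmp9 -0.32 ± 0.34, with adjusted p between 0.763 and 1.0 in edgeR. The corresponding means of Csf3r were 5.10 ± 3.15 CPM in 9 control and 5.10 ± 4.02 CPM in 8 secretome muscles (SD). For S100a9 they were 1.21 ± 0.98 and 1.11 ± 1.12 CPM. Even without these muscles the 95% interval of Csf3r ran from -1.07 to 1.07.

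**Figure D2:**
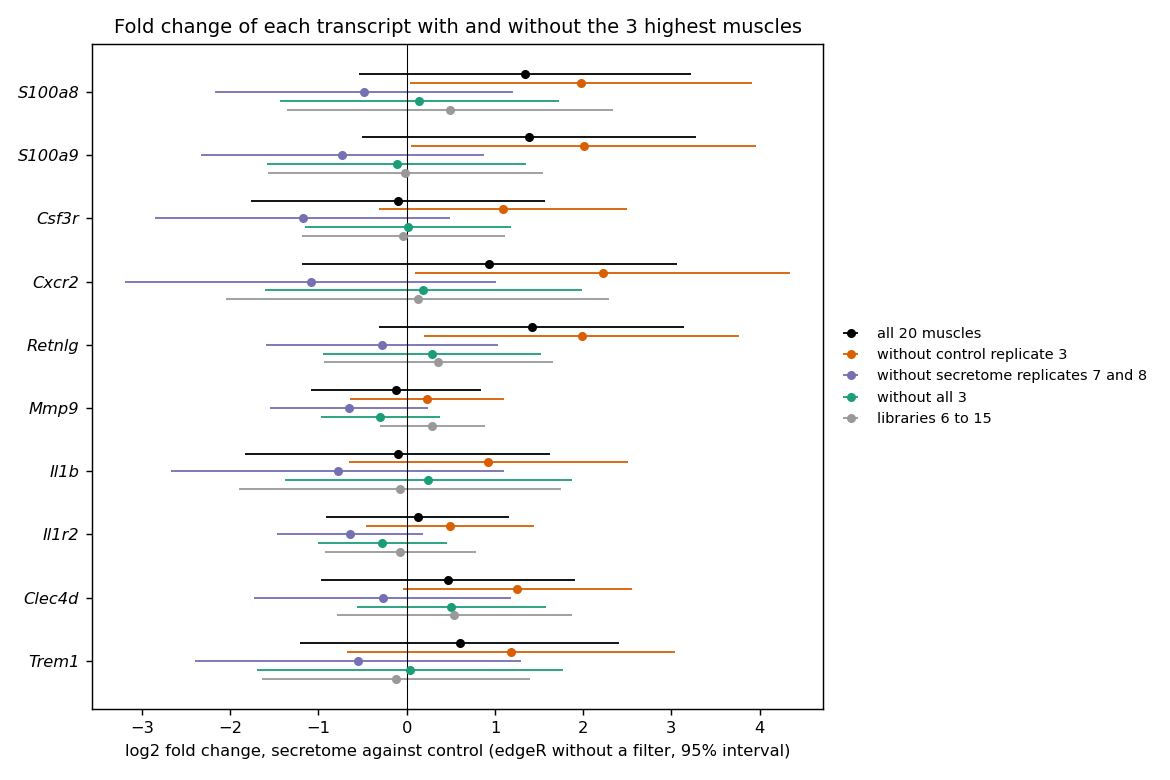
Log2 fold change of the 10 transcripts, secretome against control (horizontal axis), from edgeR without a filter on low counts so that all 10 could be fitted, with 95% intervals. Colours give the muscles used. The orange points without control replicate 3 all lie above 0, the purple points without secretome replicates 7 and 8 all lie below 0, and the green points without all 3 lie on both sides.

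Libraries 6 to 15, with 5 muscles of each group, held none of the 3 high muscles. Here 0 of 14469 genes tested (0.0%) passed the false discovery rate in edgeR and 9.95% had an unadjusted p under 0.05, and by DESeq2 37 genes passed. The filter kept 8 of the 10 genes, 4 with a log2 fold change above 0 (47.9% of all genes) and 4 below. None of the 8 passed the false discovery rate (0 genes) or had an unadjusted p under 0.05 (0 genes), and adjusted p lay between 0.705 and 0.996. S100a8 had 1.09 ± 0.57 CPM in control and 1.51 ± 1.64 CPM in secretome muscle (SD, n = 5 each), a log2 fold change of 0.50 ± 0.70 (SE). For S100a9 the means were 1.56 ± 0.95 and 1.53 ± 1.25 CPM, and the log2 fold change was -0.009 ± 0.60. Those of Csf3r were 6.98 ± 2.00 and 6.76 ± 4.20 CPM, with a log2 fold change of -0.03 ± 0.44 and a 95% interval from -0.995 to 0.94.

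Standard errors were smaller in this range than over all 20 muscles. Cxcr2 had a log2 fold change of 0.14 ± 0.80 (SE), Il1b of -0.07 ± 0.71 and Il1r2 of -0.06 ± 0.46. Mmp9 had the narrowest interval of the set, from -0.30 to 0.90 around 0.30 ± 0.28, with 1.63 ± 0.45 CPM in control and 2.00 ± 0.62 CPM in secretome muscle (SD, n = 5 each). Clec4d, which passed the filter in this range, had 0.55 ± 0.63 (SE; adjusted p = 0.762). The treatment effect in the other libraries minus that in libraries 6 to 15 was also tested directly, and 8 of 14471 genes (0.0553%) passed the false discovery rate, 0 of the 7 tested genes of the set among them. For S100a9 this difference was 1.91 ± 1.67 and for S100a8 1.17 ± 1.70 on the log2 scale (SE), with adjusted p of 0.718 and 0.853. Without control replicate 3, Cxcr2 alone had an unadjusted p under 0.05 in this test, with a difference of 4.11 ± 1.88 (adjusted p = 0.433), and 2 genes in all passed.

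The 3 high muscles did not carry the genes in the same proportions. Of the reads of S100a9 and Csf3r together, S100a9 made up 9.85% in control replicate 3 (139 of 1411 reads; 95% interval 8.35% to 11.5%). In secretome replicate 7 it made up 46.1% (304 of 659; 42.3% to 50.0%) and in secretome replicate 8 32.5% (482 of 1482; 30.1% to 35.0%). The 3 intervals do not overlap. Clopper-Pearson intervals such as these cover counting error only. Over the other 17 muscles the share had a median of 18.5% and ranged from 0% to 32.4%, on as few as 17 reads. Control replicate 3 lay within that range, below its median. Secretome replicate 7 lay above the range, and secretome replicate 8 was level with its upper end.

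Other pairs of genes also divided control replicate 3 from secretome replicates 7 and 8, although the Cxcr2 pair shares Csf3r with the pair above. Cxcr2 made up 11.6% of the reads of Cxcr2 and Csf3r in control replicate 3 (95% interval 10.0% to 13.4%), against 28.9% in secretome replicate 7 (24.9% to 33.1%) and 23.5% in secretome replicate 8 (21.2% to 25.9%). Il1b made up 77.2% of the reads of Il1b and S100a8 in control replicate 3 (73.1% to 80.9%), but 34.5% in secretome replicate 7 (28.8% to 40.5%) and 38.9% in secretome replicate 8 (35.0% to 42.8%). Over the other 17 muscles the Cxcr2 share had a median of 8.61% and ranged from 0% to 18.5%. That range holds control replicate 3, whereas secretome replicates 7 and 8 lay above it. The Il1b share of the same 17 muscles had a median of 62.7% and ranged from 30.8% to 100%, on as few as 2 reads. Its range holds all 3 high muscles. Secretome replicate 9 had the most one-sided ratio with a total over 50 reads, 96.7% Il1b (58 of 60 reads; 88.5% to 99.6%). Within calprotectin the balance was closer: S100a8 made up 43.5%, 36.5% and 44.2% of the reads of S100a8 and S100a9 in control replicate 3, secretome replicate 7 and secretome replicate 8. With 1 control and 2 secretome muscles of this kind, a difference between groups in these ratios cannot be told apart from a difference between mice.

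**Figure D3:**
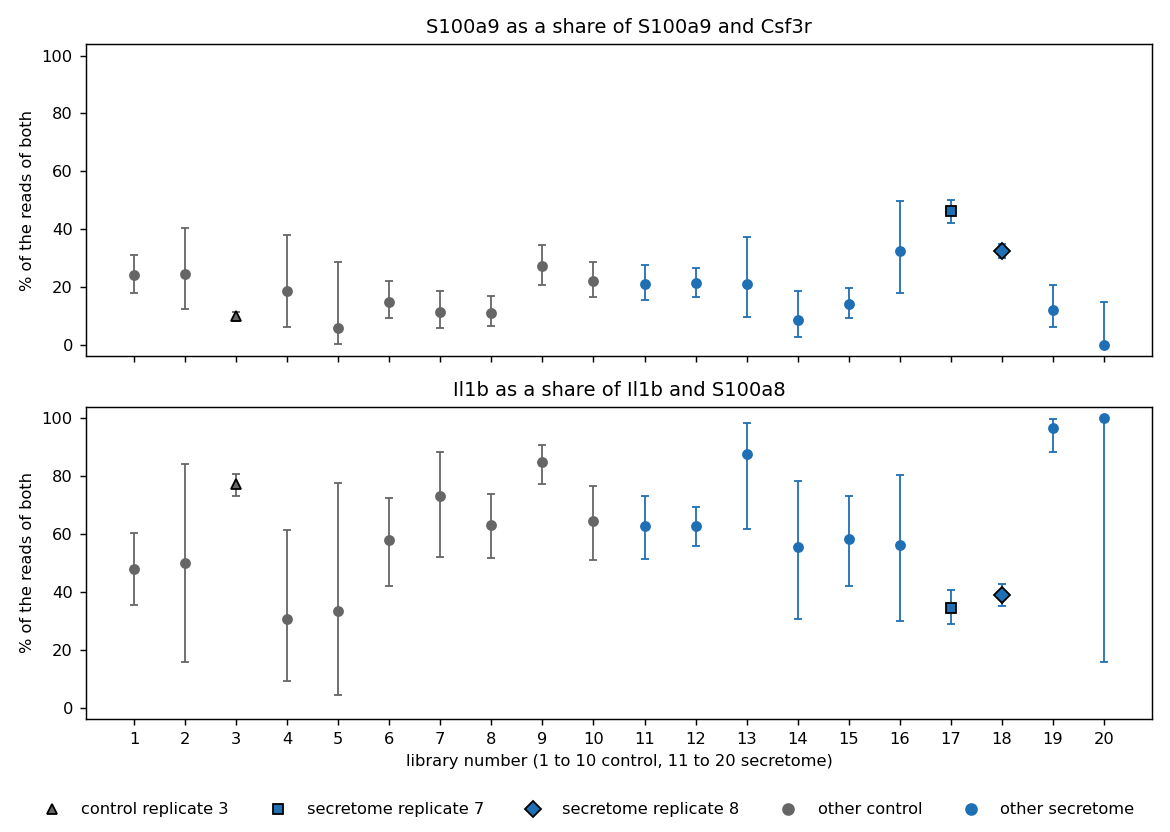
Share of S100a9 in the reads of S100a9 and Csf3r (upper panel) and of Il1b in the reads of Il1b and S100a8 (lower panel), in percent, by library number, with libraries 1 to 10 control and 11 to 20 secretome. Bars are 95% Clopper-Pearson intervals of the counting error. The triangle of control replicate 3 lies below the square and diamond of secretome replicates 7 and 8 in the upper panel (9.85%) and above them in the lower (77.2%).

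Across the 20 muscles the genes ran together. Among the 45 pairs, Spearman's rho of log2 CPM ranged from 0.23 to 0.94 with a median of 0.82, and over the 17 muscles without the 3 high ones the median was 0.72. The closest pairs were Csf3r with Trem1 (0.94) and Csf3r with Il1b (0.94), and S100a8 with S100a9 had 0.89. Mmp9 was least like the others, with 0.37 against the mean of the rest, and its lowest value was 0.23 with Il1b. These muscles share the libraries and the depth from which every value was taken, and the coefficients are descriptions.

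Outside the set, the 5 tested genes whose profile over 20 muscles was most like that of the 7 tested genes were Lilr4b (rho 0.97), Cd300lf (0.96), Slfn1 (0.95), Il18rap (0.95) and Lilrb4a (0.94). Lilr4b and Cd300lf encode receptors of myeloid cells, and Il18rap a subunit of the interleukin-18 receptor. Lilr4b and Lilrb4a are near-identical copies, so that their reads may have been split between them. Lilr4b had 40.6 CPM in control replicate 3, 30.6 in secretome replicate 8 and 14.3 in secretome replicate 7, against a median of 5.61 in the other 17. The same 5 genes came first over the 19 muscles without control replicate 3, and 4 of the 5 over the 17 muscles without all 3, where Slc2a6 took the place of Lilrb4a. None of the 5 genes passed the false discovery rate, with adjusted p between 0.68 and 0.993 in edgeR.

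Related genes were read from lists. Of the 14 neutrophil granule and maturation genes, 1 was tested, Lcn2, with a log2 fold change of -0.36 ± 0.54 (SE) over all 20 muscles and of -1.51 ± 0.56 within libraries 6 to 15 (unadjusted p = 0.0187, not past the false discovery rate, edgeR). The primary granule genes Mpo, Elane and Ctsg had at most 2 counts in any muscle, and Prtn3 at most 8, in control replicate 3. Camp, of the secondary granules, had at most 1. Other genes of this list reached higher counts. Mmp8, a collagenase of neutrophil granules, had 75 counts in secretome replicate 8, 29 in secretome replicate 7 and 19 in control replicate 3, with a median of 7 and a maximum of 25 in the other 17. Padi4, an enzyme of extracellular trap formation, had 39 counts in control replicate 3, 35 in secretome replicate 8 and 20 in secretome replicate 7, with at most 9 elsewhere.

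Among 20 other neutrophil markers, 12 were tested, of which 0 passed the false discovery rate and 0 had a p under 0.05 before adjustment, with a median log2 fold change of -0.25, against -0.03 over all genes tested. Itgb2, the shared beta chain of leukocyte integrins, had 7.24 ± 4.67 CPM in control and 4.38 ± 3.15 CPM in secretome muscle (SD, n = 10 each) and a log2 fold change of -0.72 ± 0.35 (SE; unadjusted p = 0.0539), which was -1.08 ± 0.25 within libraries 6 to 15 (unadjusted p = 0.00066, not past the false discovery rate, edgeR). Of 14 interleukin-1 pathway genes 11 were tested, with 0 past either threshold and a median of -0.03, and Il1r1, the signalling receptor, had -0.02 ± 0.19. Neutrophil-attracting chemokines and growth factors were scarce, with 3 of 11 tested. Cxcl1, a ligand of CXCR2, had 0.985 ± 1.13 CPM in control and 1.10 ± 0.82 CPM in secretome muscle (SD), and Ppbp, a platelet chemokine, had a log2 fold change of -1.16 ± 0.49 (SE; unadjusted p = 0.0266), and of -1.89 ± 0.73 within libraries 6 to 15. Csf3, the ligand of the Csf3r receptor, had at most 11 counts, and Il17a had 0 counts in all 20 muscles.

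Of the 10 endothelial adhesion genes of leukocyte entry 9 were tested, their median was -0.15, and 2 were lower at an unadjusted p under 0.05. Vcam1, which binds integrins of monocytes and lymphocytes, had a log2 fold change of -0.54 ± 0.18 (SE; unadjusted p = 0.00711). The gelatinase and collagenase partners of Mmp9 had 7 of 8 genes tested, a median of -0.12 and 1 gene lower at an unadjusted p under 0.05. That gene was Mmp14, a membrane-bound metalloproteinase, with -0.60 ± 0.17 (SE; unadjusted p = 0.00172), but -0.16 ± 0.12 within libraries 6 to 15 (unadjusted p = 0.206). Calprotectin receptors and S100 relatives had 9 of 10 genes tested, 1 lower, and a median of 0.01. Over all lists, 0 genes passed the false discovery rate, and before adjustment 0 of the 110 tested were higher and 17 (15.5%) lower with a p under 0.05, against 6.52% and 9.21% of all genes tested. Of these 17, 7 were macrophage markers.

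Injury and blood transcripts were also high in some of the 3 high muscles. The 18 acute injury and acute phase genes, of which 14 were tested with 0 past either threshold and a median of -0.20, summed to 1037 CPM in control replicate 3, the highest of all muscles. The sum was led by the metallothioneins Mt1 and Mt2 and by Socs3, with 266, 265 and 230 CPM in that muscle. The list summed to 610 CPM in secretome replicate 8 and 465 CPM in secretome replicate 7, within the range of 98.2 to 748 CPM of the other 17. Erythroid and platelet markers, 10 genes led by haemoglobin, summed to 1386 CPM in control replicate 3 and 948 CPM in secretome replicate 8, the 2 highest muscles, and to 566 CPM in secretome replicate 7, the fourth, against 103 to 669 CPM elsewhere. Of these markers 8 were tested, 1 lower at an unadjusted p under 0.05, with a median of -0.54. The part of blood and of injury transcripts in the result was not tested. Secretome replicate 3, with 669 CPM of blood markers, had the lowest sum of the 10 neutrophil and injury genes at 4.79 CPM.

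Markers of other white blood cells were read in the same way. The 12 macrophage markers summed to 457 CPM in control replicate 3, the highest muscle, but to 284 and 271 CPM in secretome replicates 8 and 7, against 109 to 369 CPM in the other 17. All 12 were tested, 7 (58.3%, against 9.21% of all genes tested) had lower levels after secretome with an unadjusted p under 0.05, 0 passed the false discovery rate, and the median was -0.66. Csf1r, the receptor that maintains macrophages, had 19.98 ± 7.23 CPM in control and 11.8 ± 4.39 CPM in secretome muscle (SD) and a log2 fold change of -0.76 ± 0.22 (SE; unadjusted p = 0.00188, edgeR). That of Csf3r was -0.12 with a 95% interval from -1.73 to 1.49, which holds the value of Csf1r, and the difference between these genes was not tested. Monocyte markers had 7 of 10 tested, 1 lower, and a median of -0.39. That gene was Ly6c2, a surface marker of inflammatory monocytes, with 3.21 CPM in control replicate 3, 1.18 in secretome replicate 8 and 0.715 in secretome replicate 7 against a median of 0.312 in the other 17. Its rho with the profile of the 7 tested genes was 0.77, above that of Mmp9 or Il1r2 with the rest of the set. The more abundant monocyte markers Ace, Nr4a1 and Fn1 had rho of -0.30, -0.16 and -0.02. The summed monocyte list had -0.08 over 20 muscles and -0.33 without the 3 high muscles. Chil3, of the same list and below the filter, had 49, 29 and 56 counts in control replicate 3 and secretome replicates 7 and 8, against a median of 7 and a maximum of 63 in the other 17. Of 8 B cell markers 2 were tested and both were lower at an unadjusted p under 0.05, with a median of -1.97, and 0 of 10 T and NK cell markers passed the filter. Of 10 mast cell and eosinophil markers 5 were tested, 0 of them past either threshold, with a median of -0.50. All 10 myofibre markers were tested, 1 of them lower, with a median of 0.11. T and NK cell markers summed to 10.4 CPM in control replicate 3, the highest muscle, but to 1.38 and 1.18 CPM in secretome replicates 7 and 8. The part of these cells in the result was not tested.

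Over the 20 muscles, Spearman's rho was taken between the profile of the 7 tested genes and the summed CPM of a list. It was 0.81 for neutrophil granule and maturation genes, 0.80 for the interleukin-1 pathway and 0.68 for acute injury. For other neutrophil markers it was 0.65, and for neutrophil-attracting chemokines and growth factors 0.63. It was 0.35 for erythroid and platelet markers, 0.18 for macrophages, -0.08 for monocytes and -0.16 for endothelial adhesion genes. Without the 3 high muscles the value for neutrophil granule genes was 0.72, that for acute injury genes 0.61 and that for erythroid and platelet markers -0.02. The lists share the libraries and depth of the 10 genes, and the other neutrophil markers include Cd300lf, named above for its likeness. A sum of CPM is led by its most abundant genes. Among the other neutrophil markers these included Tnfaip2, with a control mean of 105 CPM (rho 0.42). Among the chemokines and growth factors Csf1 led, with 23.7 CPM (rho 0.48). The sums are therefore no measure of the scarce neutrophil genes and chemokines in these lists.

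**Figure D4:**
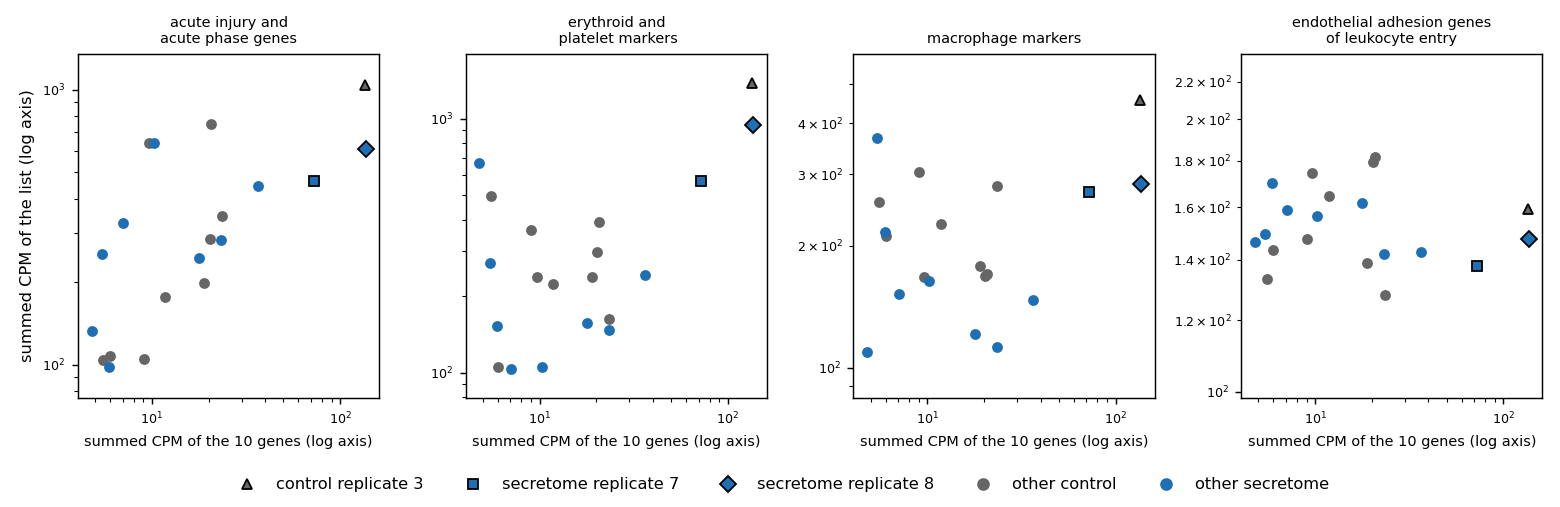
Summed CPM of 4 marker lists (vertical log axes) against the summed CPM of the 10 neutrophil and injury genes (horizontal log axis), 1 point per muscle, grey for control and blue for secretome. Control replicate 3 (triangle) is the highest muscle in the first 3 panels, whereas in the endothelial adhesion genes of the last panel it ranks 7 of 20, and secretome replicates 7 and 8 rank 18 and 12.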

How the data were processed

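Bulk RNA-seq was performed by the authors on injected quadriceps of 20 mice with directional total RNA libraries. The authors deposited whole-number counts of reads per gene without normalization, 1 column per muscle. The submitters' processing notes name cutadapt 1.16, STAR 2.7.9a, featureCounts 1.6.3, DESeq2 1.34.0 and GRCm39, while the annotation release and strand setting are not given in the sources used here. Groups came from the sample labels. Totals of 13286983 to 22987237 counts set the precision of rare transcripts.

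Genes were filtered with filterByExpr and scaled by TMM in edgeR 4.0.16 (R 4.3.3), which kept 14471 of 55416 genes, and tested two-sided by robust quasi-likelihood with treatment as the only term. Adjustment followed Benjamini and Hochberg, with calls at a 5% false discovery rate. Members below the filter were read from a fit of 32456 genes without a filter. Log2 CPM used a prior count of 2. A value of 0 counts was given the limit of 3 counts. Symbols were found for 52083 identifiers, with at least 98.6% of the counts of each library. No pair of columns was identical. Replicate numbers did not pair the muscles. Alternatives were DESeq2 1.42.0, RLE or total-count scaling, voom of limma 3.58.1, no filter, a replicate block, a library-range term and each muscle left out. Leaving out secretome replicates 7 and 8, alone or with control replicate 3, was chosen after the data were seen. The procedure was tested on simulated data.

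The genes and marker lists were chosen with earlier results of these data known, as was the range of libraries 6 to 15. Named genes were the 10 members, the 3 most abundant tested genes of each list and the gene with its smallest p, and the 5 genes most like the members by Spearman's rho. Of these, those that bear on a result are given. Genes below the filter are named as such.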

Additional observations from a re-analysis of the deposited data

Results flagged for a closer look

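For each of the 10 genes and each group of 10 muscles, the gap between the most extreme muscle and its neighbour was compared with the range of the group by Dixon's test. Of 20 groups examined 2 held a muscle past the critical value, where chance flags about 1 in 20 groups. Both were control replicate 3: Csf3r had a log2 CPM of 6.164 there and Il1r2 a log2 CPM of 1.87, each the highest of the controls and separated from the next control by a wide gap. No secretome muscle exceeded the critical value in any of the 10 genes. The test compares the extreme muscle with its neighbour alone, so that 2 high muscles of a group can hide each other. In S100a9, secretome replicate 8 had a log2 CPM of 4.517 and secretome replicate 7 had 4.074. The gap between them was a share of 0.0576 of the range. The test thus cannot decide whether secretome replicates 7 and 8 stood apart from the rest of their group. The reads of Il1r2 remain uncertain because of overlapping genes.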

How the results depend on the processing

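Under every alternative run, 0 of the neutrophil and injury genes passed the false discovery rate. The log2 fold change of a single gene changed sign in 64 of the comparisons with an alternative and kept it in 310, and the cause was not tested beyond the muscles left out. The number of all genes that passed was 1 by edgeR, 203 by DESeq2, 210 by DESeq2 without replacement of outlier counts, 3 by voom, 61 by DESeq2 without control replicate 3, 63 by DESeq2 without that muscle and without the replacement, 0 with secretome replicates 7 and 8 left out and 0 within libraries 6 to 15. With 1 muscle left out it ranged from 0 to 15, the highest without control replicate 5 and 0 without control replicate 6 or 9 or secretome replicate 1, 4, 5, 6 or 7. The number of the 7 genes passing the filter that had an unadjusted p under 0.05 was 0 and ranged from 0 to 3 with 1 muscle left out, 3 being without control replicate 3. Of all 10 genes it was 4 without that muscle and without a filter, and 5 by DESeq2 without that muscle with or without replacement of outlier counts. Within libraries 6 to 15 the genes that passed numbered 0, but 11 without a filter, 37 by DESeq2 and 0 to 2 with 1 muscle left out, 2 being without control replicate 8. The difference between library ranges was called in 8 genes and in 2 without control replicate 3, where 1 of the 7 genes, Cxcr2, had an unadjusted p under 0.05 and the differences of Csf3r and Il1b turned to 2.45 and 2.86. With RLE scaling 1 listed gene was higher at an unadjusted p under 0.05, against 0.

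The replicate block gave 0 genes past the false discovery rate and turned the log2 fold changes of Csf3r to 0.35, Il1b to 0.42 and Il1r2 to -0.15. Deviations of muscles with the same number had correlations from -0.24 to 0.22, over 0.1 in 2 of 10, so that the numbers do not pair the mice. Voom turned Csf3r to 0.47, Mmp9 to 0.12, Il1b to 0.65 and Il1r2 to -0.11. DESeq2 without control replicate 3, with or without outlier replacement, gave 1.08 for Csf3r, 0.23 for Mmp9 and 0.91 for Il1b. Libraries 6 to 15 alone gave -0.009 for S100a9, 0.30 for Mmp9, -0.0608 for Il1r2 and, without a filter, -0.12 for Trem1. With secretome replicates 7 and 8 left out, S100a8 had -0.50, S100a9 -0.75, Cxcr2 -1.11 and Il1r2 -0.66, and without a filter Retnlg had -0.28, Clec4d -0.27 and Trem1 -0.55. With all 3 high muscles left out, S100a9 had -0.13, Csf3r 0.0005, Il1b 0.23 and Il1r2 -0.29. With 1 muscle left out of the 20, S100a8 ranged from 0.46 to 1.96, S100a9 from 0.60 to 2.00, Cxcr2 from 0.004 to 2.21, Csf3r from -0.81 to 1.08, Mmp9 from -0.50 to 0.22, Il1b from -0.59 to 0.91 and Il1r2 from -0.31 to 0.48. Within libraries 6 to 15, S100a8 ranged from -0.35 to 0.80, S100a9 from -0.46 to 0.28, Csf3r from -0.32 to 0.22, Cxcr2 from -0.22 to 0.46, Il1b from -0.91 to 0.45, Il1r2 from -0.50 to 0.20 and Clec4d from -0.18 to 0.82. Depth limits Retnlg, Clec4d and Trem1, whose medians were under 12 counts in either group.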
